A study of Mus musculus with 3 samples.

Results

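Meis1, Mecom, Hlf, Erg, Fli1, Etv6, Prdm16, Ikzf1 and Hhex, 9 transcription factor genes that act in hematopoietic stem cells, were examined for CTCF peaks in LSK cells. Each gene was given a window of its body (the GENCODE M21 gene record on mm10, first to last base) and 100 kb on either side. The 9 windows held 39 of the 18945 peaks in the list. All 9 genes had a peak, so there was no gene without one. The peaks came from 1 CTCF ChIP-seq library of LSK cells (lineage-negative, Sca1-positive, cKit-positive cells, the sorted fraction that contains the stem and multipotent progenitor cells) from the bone marrow of adult male C57BL6 mice. The library had no replicate, so no difference was tested, and intervals cover counting error only. The list gives no read counts, and the depth behind each peak is unknown. The series also has an input library of LSK cells and an input library of MEP cells, which were not analyzed here. A CTCF peak list carries no measure of the sort markers, so the LSK label could not be checked.

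CTCF is a zinc finger protein that binds DNA at an asymmetric sequence motif. Together with cohesin it anchors chromatin loops, and sites that face each other along the chromosome are the ones known to be favored as loop anchors. The 9 genes encode factors of several DNA-binding families. MEIS1 is a TALE homeodomain protein that works as a cofactor of HOX proteins. MECOM and PRDM16 are zinc finger proteins with a PR domain, and both are required to maintain stem cells. HLF is a PAR bZIP protein, ERG, FLI1 and ETV6 are ETS proteins, IKZF1 (Ikaros) is a zinc finger protein of lymphoid development, and HHEX is a homeodomain protein used by blood and endothelial precursors.

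The sequences show which letters lie under the peaks. A 12-base CTCF core motif was searched on both strands of the RefSeq GRCm38 sequence (the assembly of mm10). It was found without a mismatch in 12 of the 39 peaks (30.8%, 95% exact binomial interval 17.0 to 47.6), and 35.6% of all peaks held it. Windows of the same widths placed 10 kb to the left and to the right of all peaks held it in 1.29% and 1.35% of cases. The best match of each of the 12 peaks is printed below with 24 bases on either side, read 5′ to 3′ on the strand of the match, with the 12 motif bases in capitals.
Mecom gene body, chr3:30508474-30508533, minus strand: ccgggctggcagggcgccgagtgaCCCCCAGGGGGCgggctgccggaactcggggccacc
Erg distal downstream, chr16:95341535-95341594, plus strand: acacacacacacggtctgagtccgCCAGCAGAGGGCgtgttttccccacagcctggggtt
Erg proximal downstream, chr16:95350633-95350692, plus strand: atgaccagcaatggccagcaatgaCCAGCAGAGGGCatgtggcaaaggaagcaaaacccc
Erg upstream, chr16:95605453-95605512, plus strand: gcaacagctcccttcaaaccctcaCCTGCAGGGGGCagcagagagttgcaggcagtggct
Fli1 upstream, chr9:32585475-32585534, plus strand: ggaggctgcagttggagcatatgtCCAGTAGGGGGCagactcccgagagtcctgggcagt
Etv6 upstream, chr6:133960856-133960915, plus strand: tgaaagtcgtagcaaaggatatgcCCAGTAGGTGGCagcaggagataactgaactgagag
Prdm16 upstream, chr4:154674740-154674799, minus strand: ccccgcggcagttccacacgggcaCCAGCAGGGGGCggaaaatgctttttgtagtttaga
Ikzf1 downstream near Fignl1, chr11:11788570-11788629, minus strand: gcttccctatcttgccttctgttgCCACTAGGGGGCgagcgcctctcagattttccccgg
Ikzf1 downstream in Ddc, chr11:11820381-11820440, plus strand: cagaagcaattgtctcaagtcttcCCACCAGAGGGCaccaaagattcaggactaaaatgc
Hhex upstream, chr19:37419797-37419856, plus strand: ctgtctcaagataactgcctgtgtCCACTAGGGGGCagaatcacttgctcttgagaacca
Hhex proximal downstream, chr19:37509900-37509959, minus strand: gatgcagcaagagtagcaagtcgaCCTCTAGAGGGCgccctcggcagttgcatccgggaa
Hhex distal downstream, chr19:37531343-37531402, minus strand: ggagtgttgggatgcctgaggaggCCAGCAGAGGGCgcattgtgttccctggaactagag
The 12 peaks were spread over 7 of the 9 windows, with 3 in Erg, 3 in Hhex, 2 in Ikzf1 and 1 each in Mecom, Fli1, Etv6 and Prdm16, and none in Meis1 or Hlf. The letters CCAGCAGAGGGC stood in both Erg downstream peaks and in the distal downstream peak of Hhex, and CCACTAGGGGGC stood in the Ikzf1 peak near Fignl1 and in the upstream peak of Hhex. Another 19 peaks held the motif with 1 mismatch. With up to 1 mismatch, 31 of 39 peaks (79.5%, interval 63.5 to 90.7) held it against 83.6% of all peaks, and against 17.4% of the shifted windows on either side. The 4 peaks below are shown because they are the only peak of the Meis1 window, the peak near the Mecom-202 start, the strongest peak of Erg and the only body peak of Ikzf1. Each match has 1 mismatch.
Meis1 upstream, chr11:19024624-19024683, minus strand: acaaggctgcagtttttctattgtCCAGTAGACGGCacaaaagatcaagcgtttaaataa
Mecom gene body near the Mecom-202 start, chr3:30015408-30015467, plus strand: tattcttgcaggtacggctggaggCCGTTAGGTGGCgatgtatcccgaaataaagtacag
Erg upstream near Ets2, chr16:95658967-95659026, plus strand: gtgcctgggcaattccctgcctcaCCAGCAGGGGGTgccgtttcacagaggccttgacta
Ikzf1 gene body, chr11:11742906-11742965, minus strand: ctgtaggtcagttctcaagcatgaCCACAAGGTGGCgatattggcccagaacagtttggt
In 25 of the 31 peaks with such a match, its center lay within 60 bp of the peak midpoint. Where a peak held several equal matches, the most central was taken, which raises this count. The same count over all peaks was not made, so 25 of 31 has no background here.

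The number of peaks differed among the 9 windows. Erg and Fli1 had 7 peaks each, Prdm16 had 6, Hhex had 5, Mecom, Hlf and Ikzf1 had 4 each, and Meis1 and Etv6 had 1 each. Over all 21755 protein-coding genes the median was 3 peaks per window, with quartiles of 1 and 5, and 84.3% had at least 1 peak. Thus all 9 of 9 stands beside a background in which most genes have a peak. Of the 9 genes, 7 had at least 4 peaks, and 54.7% of all protein-coding genes had fewer than 4. Windows are not of equal length, since the bodies run from 5.9 kb (Hhex) to 596.7 kb (Mecom). The median protein-coding body was 17.4 kb, and all of the 9 except Hhex were longer, which gives more room for peaks. Together the 9 windows had 10.9 peaks per Mb (interval 7.73 to 14.9), against 9.69 in the windows of all protein-coding genes. Scaled to length, Hhex came first with 24.3 peaks per Mb, followed by Fli1 with 21.8, Erg with 16.4, Hlf with 15.7, Ikzf1 with 13.9, Prdm16 with 11.5, Mecom with 5.02, Meis1 with 2.95 and Etv6 with 2.3. With counts this small, the counting errors of neighbors in that order overlap. At the density of the whole list (7.19 peaks per Mb), Meis1 would have had 2.44 peaks, Mecom 5.73 and Etv6 3.13, and these were the 3 genes below that level.

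**Figure D1:**
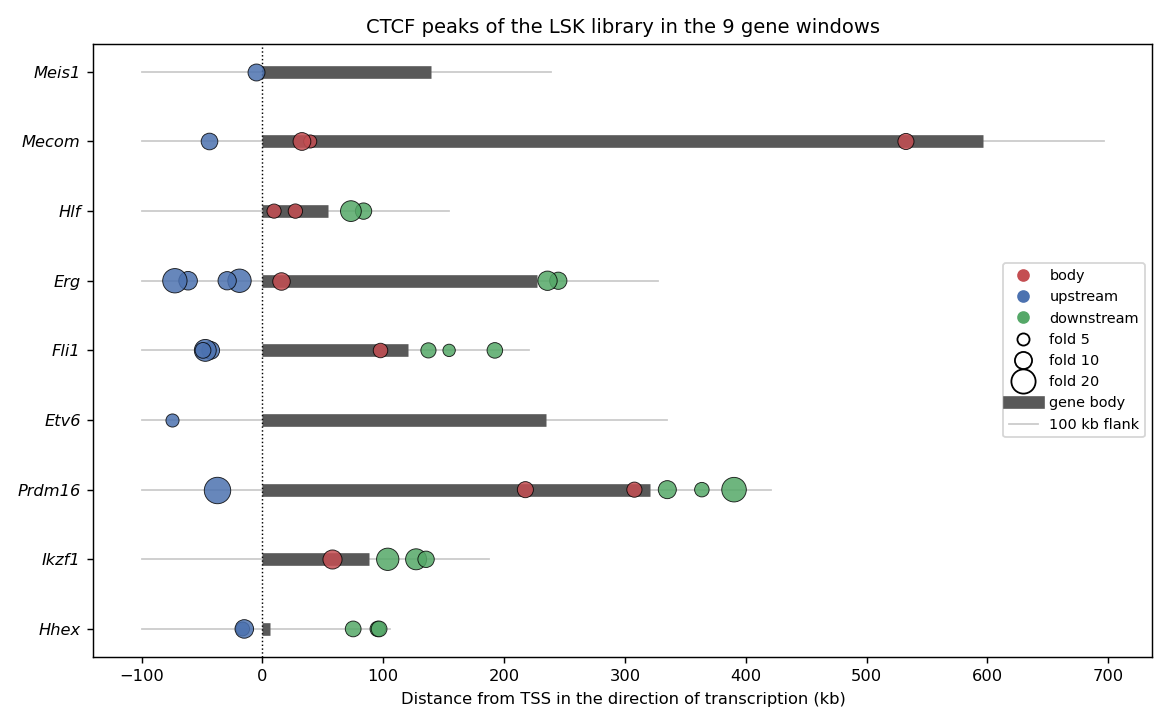
CTCF peaks in the 9 windows of the LSK library, with distance from the transcription start in kb, in the direction of transcription, on the x axis and the genes on the y axis. Circles are peaks with an area that scales with fold enrichment, colored by place, dark bars are gene bodies and thin lines are the 100 kb flanks. Meis1 and Etv6 show 1 peak each, and the 3 peaks upstream of Fli1 overlap in the drawing.

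Most of the peaks lay outside the genes. Of the 39 peaks, 10 were in a gene body, 13 upstream and 16 downstream. The bodies add up to 1.79 Mb and the flanks to 1.8 Mb, so the body density was 5.59 peaks per Mb (exact Poisson interval 2.68 to 10.3) and the flank density was 16.1 (10.8 to 23.1). Over all protein-coding genes the 2 densities were closer, with 9.4 in bodies and 10.1 in flanks. That flank value leaves out every protein-coding body, whereas the flanks of the 9 genes include bodies of neighboring genes. The 2 flank values are therefore not like for like. Long genes as a class had fewer peaks per Mb of body, however. The bodies of the 2489 protein-coding genes over 100 kb had 5.83 peaks per Mb, which lies inside the interval of the 9 genes, and 6 of the 9 genes are over 100 kb. A body peak was present in 6 of 9 genes (Mecom, Hlf, Erg, Fli1, Prdm16 and Ikzf1) against 30.0% of all protein-coding genes. Among the 6 genes over 100 kb, 4 had one against 65.2% of genes of that length, and Meis1 and Etv6 were the 2 without.

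**Figure D2:**
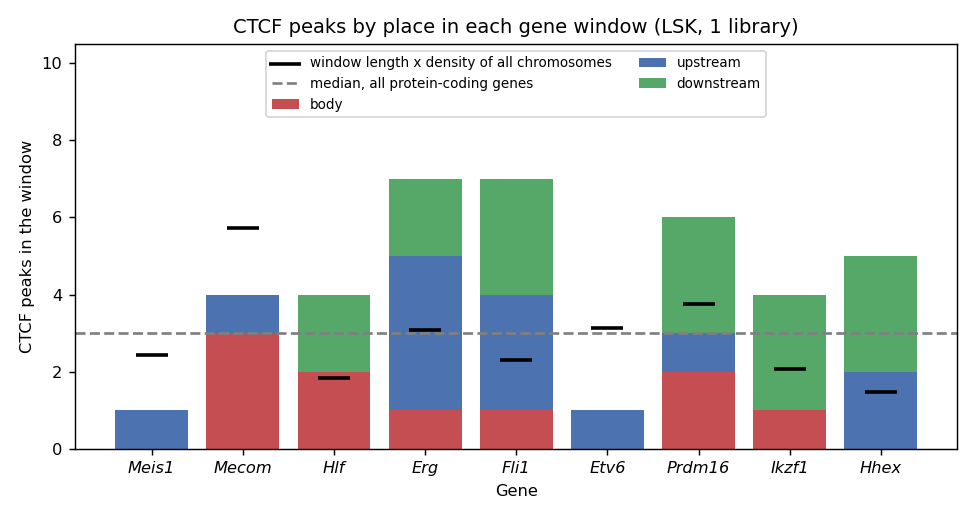
Number of CTCF peaks in each window (y axis) for each gene (x axis), stacked by place. The black dash is the number that the window's length would give at the density of all chromosomes (7.19 peaks per Mb) and the dashed line is the median of 3 over all protein-coding genes. Meis1, Mecom and Etv6 lie below their dash.

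The distance from the transcription start to the nearest peak ranged from 5323 bp to 74495 bp. A peak over the start was found for 0 of the 9 genes and for 4.26% of protein-coding genes, so few or none would be seen among 9 genes at that share. Meis1 (5323 bp) and Hlf (9369 bp) had a peak within 10 kb of the start, 2 of 9 genes, near the 29.3% of all genes. Hhex (14569 bp), Erg (15417 bp), Mecom (32352 bp), Prdm16 (37458 bp), Fli1 (42501 bp), Ikzf1 (57570 bp) and Etv6 (74495 bp) followed. The median was 32352 bp for the 9 genes and 24222 bp for all protein-coding genes, and the 9 values were spread along the distribution of all genes, from the 19.6% of genes with a closer peak than Meis1 to the 75.7% with a closer peak than Etv6. The choice of start matters here. When the nearest of all annotated transcript starts was taken, Mecom (802 bp) and Prdm16 (5484 bp) also came within 10 kb, which makes 4 of 9 genes against 38.1% of all protein-coding genes.

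**Figure D3:**
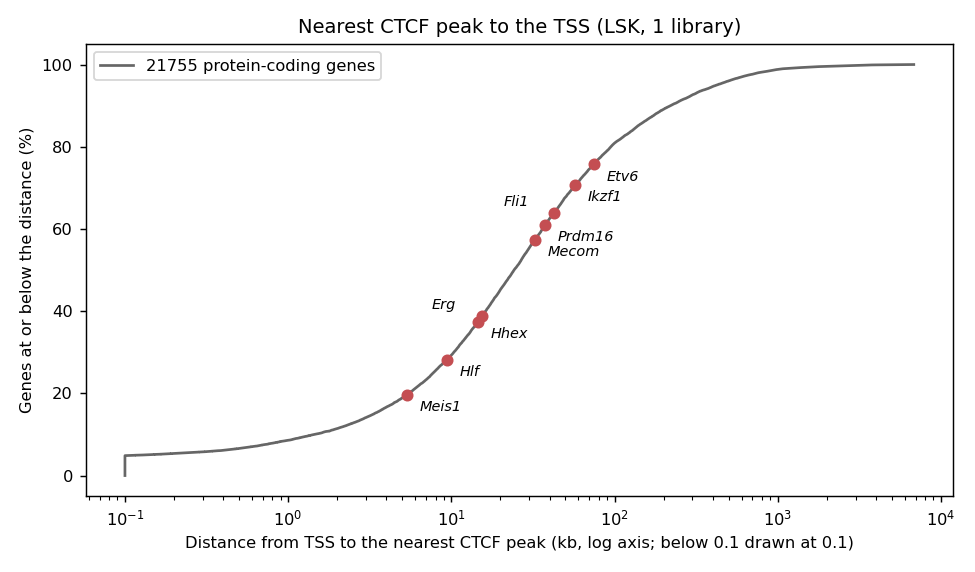
Cumulative share of 21755 protein-coding genes (y axis, percent) by the distance from the transcription start to the nearest CTCF peak (x axis, kb, log scale), with the 9 genes as red points. The points run from Meis1 at 5323 bp to Etv6 at 74495 bp.

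Meis1 lies on Chromosome 11 (18879817 to 19018985, minus strand) in a window with no other protein-coding gene. Its single peak, at chr11:19024308-19024799, was 5323 bp upstream of the start, at 9.79-fold enrichment (the authors' ratio on a linear scale) and 11.089 on the −log10 p-value scale. It was the nearest peak to every annotated Meis1 start. The whole 139.2 kb body and all of the downstream flank were free of peaks. The next peak past the 3′ end lay 1026924 bp from the gene, so the peak-free interval that contains the Meis1 body measured 1171414 bp. The gap around the start was larger than that of 90.9% of protein-coding genes. The next peak on the upstream side lay 741881 bp from the start, past the window. The neighboring genes are also distant, at 925942 bp for Etaa1, a replication stress factor, and 905390 bp for Spred2, an inhibitor of RAS signaling. The window held 3 exact matches to the core motif, none of them under the peak.

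Mecom on Chromosome 3 (29951296 to 30548008, minus strand) is the longest of the 9 genes and has 16 annotated transcript starts. Its locus makes a long form that includes the PR domain and a short form (EVI1) that lacks it, from separate promoters. The body peaks lay toward the 2 ends of the gene. A peak at chr3:30015123-30015771 (fold 8.81) was 1618 bp upstream of the start of the Mecom-202 transcript. It overlapped an annotated Mecom exon and the antisense gene Mecomos. A pair of peaks lay at the other end, close to the group of starts at 30509487 to 30509822. The one at chr3:30508192-30508685 (fold 5.87, exact motif) was 802 bp downstream of the Mecom-209 start, and the one at chr3:30514885-30515656 (fold 10.77, no motif with up to 1 mismatch) was 5063 bp upstream of the Mecom-207 start. Both were GC-rich, at 69.0% and 61.3% of bases, against a median of 47.02% over all peaks. The 492420 bp between the first peak and the second held no peak. The gene record itself begins at the start of 1 transcript annotated for nonsense-mediated decay (Mecom-208), 32352 bp from the nearest peak. The fourth peak (fold 9.46) lay upstream, 7067 bp from the start of Actrt3, an actin-related gene. The body held 8 exact motif matches and 1 of them was under a peak.

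Prdm16 on Chromosome 4 (154316125 to 154636873, minus strand), the other PR domain gene, had the strongest peak of the 39. The peak at chr4:154674331-154675206 lay 37458 bp upstream at 23.82-fold enrichment (−log10 p-value 46.458), higher in fold than 98.9% of all peaks. Its exact motif match was 2 bp from the peak midpoint. It was closer to Actrt2, an actin-related gene 6464 bp away, than to Prdm16. The 2 body peaks were weaker, at 7.83 with its midpoint in intron 12 and 8.81 in intron 3. The peak of 7.83 also overlapped an annotated Prdm16 exon. Between the intron 3 peak and the upstream peak, 254744 bp that include the Prdm16 start held none. Downstream, a peak of 11.09 covered the start of Arhgef16, which encodes a guanine nucleotide exchange factor, and peaks of 7.18 and 20.56 lay in introns of Megf6, which encodes a protein with EGF repeats. The 20.56 peak had no motif with up to 1 mismatch. The body held 4 exact motif matches, of which 0 were under a peak.

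Erg on Chromosome 16 (95359169 to 95586593, minus strand) had 7 peaks, all with a fold enrichment of at least 10.12, the median of all peaks. No other window had its weakest peak that high. The body peak, in intron 1 (fold 10.44), was 15417 bp from the start. Upstream peaks lay 18545 bp (fold 18.6), 28757 bp (11.42), 61162 bp (11.75) and 71996 bp (20.23) from the start. The nearer 2 had Erg as the nearest protein-coding start and the farther 2 had Ets2, another ETS gene, which lies upstream of Erg. Downstream, peaks of 12.73 and 10.12 lay 8187 bp and 17189 bp past the 3′ end, in introns of the antisense gene Gm31641. Between the nearer of these and the intron 1 peak, 219435 bp of the Erg locus held no peak. Exact motif matches flanked the gene on both sides, and they faced the same way, on the plus strand, 254.8 kb apart.

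Fli1 on Chromosome 9 (32422204 to 32542861, minus strand) also had 7 peaks and is paired with an ETS neighbor, Ets1. The only body peak (fold 7.18) was in intron 5, 676 bp from a small nuclear RNA gene, Gm22060, and had no motif with up to 1 mismatch. The 3 upstream peaks lay in a cluster between Fli1 and Ets1, at 42501 bp (fold 10.77, exact motif), 46836 bp (16.31) and 48760 bp (8.48) from the Fli1 start. The middle one was also the strongest of the window and was 45723 bp from the Ets1 start, so it stood close to midway between the 2 genes. The 3 downstream peaks, at 8.27, 5.22 and 7.83, were in or near Kcnj1 and Kcnj5, potassium channel genes, and the peak of 5.22 in a Kcnj1 intron was the weakest of the 39.

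Etv6 on Chromosome 6 (134035700 to 134270158, plus strand) had the farthest nearest peak and one of the weakest. The peak at chr6:133960623-133961205 lay 74495 bp upstream, at 5.87-fold enrichment, higher than 4.65% of all peaks, and its −log10 p-value was 5.26. It nevertheless held an exact motif match, 28 bp from its midpoint. The 234.5 kb body had no peak, and the peak-free interval around it measured 428119 bp. The gap around the start was larger than that of 79.3% of genes. The neighboring genes Kap and Bcl2l14 lay outside the window. With peaks limited to a −log10 p-value of at least 10, Etv6 was the 1 gene without a peak in its window, and its nearest such peak was 328381 bp from the start.

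Hlf on Chromosome 11 (90336536 to 90390895, minus strand) had 2 peaks with midpoints in intron 2 and 2 peaks downstream, and none upstream. The intron peaks had fold enrichments of 6.85 and 7.03. The former also overlapped an annotated Hlf exon, and lay 9369 bp from the main start and 409 bp from the start of the noncoding transcript Hlf-204. The downstream peaks, 18516 bp and 29072 bp past the 3′ end toward Mmd, were higher at 14.68 and 9.14. Hlf was the only window with 0 exact matches to the core motif. The 2 peaks of 7.03 and 9.14 held it with 1 mismatch, and the strongest (14.68) held neither.

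Ikzf1 on Chromosome 11 (11685003 to 11772926, plus strand) had all of its peaks on the 3′ side of its start. The body peak, in intron 3, was 57570 bp from the start with a fold enrichment of 12.4, the highest of the 10 body peaks. The 3 downstream peaks lay around Fignl1, an ATPase gene of DNA repair, and Ddc, which encodes dopa decarboxylase. The peak at chr11:11788192-11789293, over an exon of Fignl1, had the highest −log10 p-value of the 39 (53.033) and was the widest at 1102 bp, with a fold enrichment of 16.97. The other 2 were at 15.01, 2881 bp from the Fignl1 start, and 9.14, in a Ddc intron. Exact matches in the first and the last of the 3 were on the minus and the plus strand, so they pointed away from each other.

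Hhex on Chromosome 19 (37434810 to 37440731, plus strand), the shortest gene at 5.9 kb, had no body peak and 5 peaks in its flanks. The nearest peak, at chr19:37419431-37420241 (fold 11.75), lay 14569 bp upstream (37.3% of genes had a closer one) in an intron of Kif11, which encodes a mitotic kinesin, and a second Kif11 intron peak (6.53) was 628 bp farther. Downstream peaks lay 68826 bp (8.48), 89196 bp (8.16) and 90345 bp (8.48) past the 3′ end, toward the exocyst gene Exoc6. The exact motif in the upstream peak was on the plus strand and those in the downstream peaks were on the minus strand, so the exact matches on either side of Hhex faced each other, 90.1 kb apart at the nearest. The matches with 1 mismatch in the other 2 peaks pointed the other way, on the minus strand upstream and on the plus strand downstream. The proximal downstream peak, besides its exact match, also held a match with 1 mismatch on the plus strand. Hhex and Erg were the 2 genes with an exact match in a peak on both sides of the body. Of these exact pairs the one around Hhex was convergent. Such pairs were not counted over all protein-coding genes, so how common they are is unknown, and looping was not measured. Of the 4 exact matches in the Hhex window, 3 were under a peak.

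Occupied motifs were mostly in the flanks. The 9 windows held 48 exact matches (13.4 per Mb, against 8.71 over all chromosomes), and 12 of them were under a peak (25.0%, interval 13.6 to 39.6, against 30.3% of the 22944 matches over all chromosomes). In the flanks 11 of 30 were under a peak (36.7%, interval 19.9 to 56.1). In the bodies 1 of 18 was, the Mecom match (5.56%, interval 0.141 to 27.3), against 29.8% in all protein-coding bodies and 25.6% in the bodies of genes over 100 kb. These shares rest on few matches, and the intervals of bodies and flanks overlap. Of the peaks themselves, 1 of 10 in bodies (interval 0.253% to 44.5%), 5 of 13 upstream and 6 of 16 downstream had an exact match, where all peaks in protein-coding bodies had 35.3% and all others 36.0%. With up to 1 mismatch the counts were 7 of 10, 11 of 13 and 13 of 16, so the places differed little.

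Peak strength in the 9 windows was near that of the list. The median fold enrichment was 9.46 (lowest 5.22, highest 23.82) against 10.12 over all peaks, and the median −log10 p-value was 11.5 against 12.62. Of the 39 peaks, 17 were above the median of all peaks. The strongest 10% of the list, from 16.64 up, held 5 of them (1 of Prdm16 upstream, 1 in Megf6, 2 of Erg and 1 of Ikzf1), and the weakest 10%, up to 6.53, held 4 (the Mecom peak with the exact motif, the Kcnj1 peak, the Etv6 peak and the second Hhex upstream peak). None of the 5 strongest was in the body of 1 of the 9 genes. Body peaks had a median of 8.32 (5.87 to 12.4), downstream peaks 9.14 (5.22 to 20.56) and upstream peaks 11.42 (5.87 to 23.82), with ranges that overlap. Median fold enrichment was 10.4 for the 12 peaks with an exact match, 8.81 for the 19 with 1 mismatch and 10.9 for the 8 with neither. These medians were not in the order of the motif match. They rest on few peaks, and a relation between fold enrichment and motif match was not tested. Width (median 706 bp against 715 bp), GC content (46.39% against 47.02%) and repeat-masked bases (15.1% against 14.17%) were close to those of all peaks, and 0 of the 39 peaks was masked over more than 50% of its length.

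**Figure D4:**
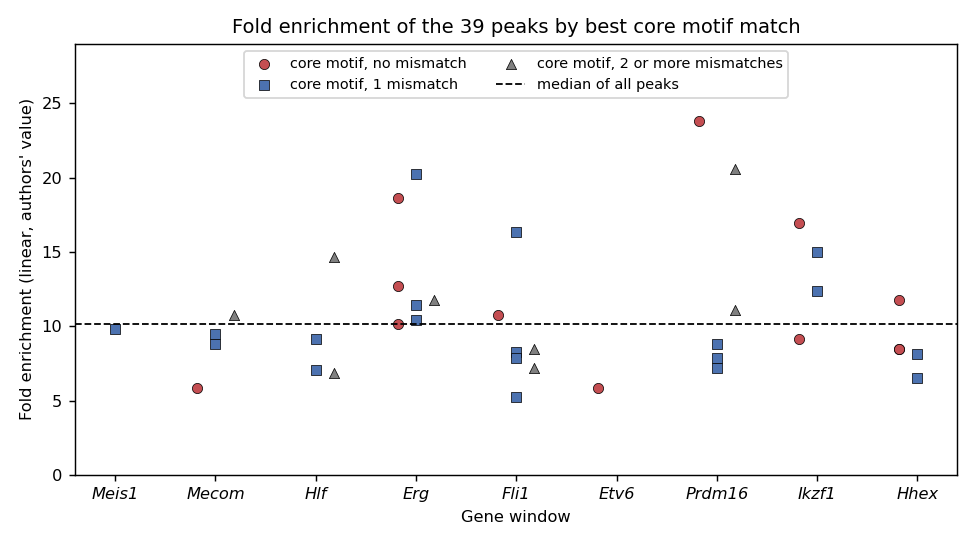
Fold enrichment of each of the 39 peaks (y axis, the authors' linear ratio) by gene window (x axis), with markers for the best match to the core motif. The dashed line is the median of all peaks, 10.12. All 7 Erg peaks lie on or above it, and the highest point is the exact-match peak upstream of Prdm16 at 23.82.

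For 14 of the 39 peaks (35.9%) the listed gene had the nearest protein-coding start. Over all pairs of a peak and a protein-coding gene with the peak in its window, the share was 22.1%. That share gives gene-dense regions more weight, since a peak there enters once for each gene whose window holds it. Other protein-coding genes reached into the windows of 7 of the 9 genes, and Meis1 and Etv6 were the exceptions. The share of all protein-coding genes with such a neighbor was not counted. A relation between neighboring genes and peak number was not tested.

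Most relatives of the 9 genes also had a peak. Of 51 other members of the same families, 46 had a peak in the window (90.2%, against 84.3% of all protein-coding genes), with a median of 4 peaks and a range of 0 to 11. A body peak was present in 14 (27.5%, against 30.0%) and a peak within 10 kb of the start in 11 (21.6%, against 29.3%). These shares were near those of all genes. The starts of Ets2 and Elf4 were covered by a peak. Among TALE genes 7 of 8 had a peak, with 6 each for Pbx2 and Pknox2 and 0 for Pbx3, a cofactor of HOX proteins like MEIS1. Among PRDM genes 11 of 13 had one, with 7 for Prdm2 and 5 for Prdm11, and 0 for Prdm1 (the plasma cell factor BLIMP1). The 3 PAR bZIP and related genes all had peaks, 6 for Dbp, 4 for Tef and 2 for Nfil3. Among ETS genes 21 of 23 did, from 11 for Fev and 8 for Elf2 to 0 for Etv1 and Elk1. All 4 Ikaros relatives did, with 7 for Ikzf3, 6 for Ikzf4, 2 for Ikzf2 and 1 for Ikzf5. Windows of neighbors share peaks, as with Erg and Ets2 or Fli1 and Ets1, so these counts are not independent of those of the 9 genes.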

How the data were processed

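CTCF was profiled by ChIP-seq in 1 library of LSK cells, and the authors mapped reads to mm10. The study's methods name Bowtie and MACS with multiply mapping reads allowed, which can raise peaks in repeats. The submitters' notes name bcl2fastq and Bowtie 1.0.0, which is not the Bowtie version given in the study's methods. MACS settings and control: not given in the sources used here. Columns of the deposited list, which has no header, were read by layout as the authors' fold enrichment (a ratio) and −log10 p-value. Starts were taken as 0-based and raised by 1.

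Peaks were joined to GENCODE M21 genes by an overlap of at least 1 base and the motif was searched in RefSeq GRCm38 sequence, in Python 3.11.15 with numpy 2.4.6, pandas 2.3.3, scipy 1.17.1 and matplotlib 3.10.9, with scripts tested on simulated data. The background was all protein-coding genes on Chromosomes 1 to 19 and X. Nothing was tested, for lack of replicates. Members and lists were chosen with earlier results of these data known, and genes over 100 kb, all transcript starts over all genes, shifted windows, nearest starts over all windows and motif orientation were added after seeing the data. Peaks in a body, nearest to a start or strongest in a window are named by rule, with their nearest, overlapping and neighboring genes, as are up to 2 relatives per family with the most and the fewest peaks, of which 1 is not reported here. Other peaks and genes were named after their values were seen. Alternatives were a −log10 p-value of at least 10, flanks of 50 kb or none, midpoints, merging within 1 kb, other starts and distances, 1 mismatch, the central 200 bases and leaving out each gene.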

Additional observations from a re-analysis of the deposited data

How the results depend on the processing

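No paired analysis was possible because the only ChIP library has no partner, and the spread between cultures, animals or runs is unknown. Of the alternatives for the 9 summary values, 68 stayed within 1.5 times the reported value or within its interval and 9 did not. Among the 68, the −log10 p-value in place of fold enrichment was judged by another rule, a median below that of the list. Also among them, the number of genes with a peak in the body only, 6 of 9, lay at the limit of 1.5. Many of the 68 left out 1 gene, which changes little by design. In the gene bodies only, the windows held 10 peaks, 5.59 per Mb, and 14 relatives had a peak. With a −log10 p-value of at least 10, which 63.0% of the list passed, body peaks fell from 10 to 6. With 1 mismatch allowed, the share of peaks with the motif was 79.5%. The number of genes with a peak near the start was 4 over all transcript starts, 0 within 1 kb and 7 within 50 kb, and the median distance was 14569 bp over all transcript starts. Leaving out each gene in turn gave 32 to 38 peaks, 7 to 10 body peaks, 9.8 to 12.5 peaks per Mb, a motif share of 26.5% to 34.4% and a median fold enrichment of 8.81 to 9.95. With 50 kb flanks, 8 genes had a peak, and Etv6 was the gene without one, as at the stricter p-value, where 75.1% of protein-coding genes had one.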
